A study of Mus musculus with 25 samples.

Results

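The Slc25 genes encode the mitochondrial carrier family, and GATA1 and TAL1 binding was counted at each of them. Members were all protein-coding genes in GENCODE vM1, an annotation of mouse genome build mm9, whose symbol begins with Slc25a and a number, without Slc25a37 and Slc25a38. They numbered 42 of 22208 protein-coding genes. The rule used the symbol and no binding value. An entry of a location list was counted for a gene if it lay in the gene or within 10 kb of either end, so an entry between neighboring genes could count for several of them.

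Mitochondrial carriers are small proteins of the inner membrane that exchange metabolites, nucleotides, amino acids, phosphate, cofactors and metals between the cytosol and the matrix. Maturing red cells make heme, whose synthesis begins and ends inside mitochondria, so that precursors, cofactors and iron must cross this membrane. GATA1 is a zinc finger activator and repressor of erythroid genes that recognizes GATA sequences, and TAL1 is a basic helix-loop-helix protein that binds E-boxes with E proteins and can join GATA1 in a complex.

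Both factors were mapped by ChIP-exo, in which exonuclease trims immunoprecipitated DNA up to the cross-linked protein. G1E cells are a mouse erythroid progenitor line of strain 129 that lacks GATA1, and G1E-ER4 cells are G1E cells that carry GATA1 fused to an estrogen receptor domain, which estradiol activates. The 25 libraries were GATA1 in G1E cells (n = 1) and in G1E-ER4 cells at 0, 3 and 24 h (n = 3 each), and TAL1 in G1E cells (n = 4) and in G1E-ER4 cells at 0, 3 and 24 h (n = 5, 3 and 3). The labels give 10 nM estradiol at 3 and 24 h, a dose that differs from that in the methods. The lists of each factor pool its libraries and time points, so no value below belongs to a time point or a replicate, and no test over samples could be made. The paper describes the GATA1 lists as made from G1E-ER4 cells, whereas the labels link the G1E library to them as well. Each entry is a base position without a score or read count, so the depth behind it is unknown, and neither the cell type nor gene expression could be checked from these lists.

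For each factor there are 3 lists. Peak pairs join exonuclease stops on opposite strands, MultiGPS locations are binding events modeled jointly over the libraries, and final locations are those of MultiGPS with a peak pair close by. The final lists hold 10290 GATA1 and 15209 TAL1 locations. A final GATA1 location was present at 12 of the 42 carrier genes (28.6%), against 23.9% of all protein-coding genes. A final TAL1 location was present at 9 (21.4%), against 21.3% of all genes. Locations of both factors were found at 6 (14.3%, against 16.3%), and a location of either factor was found at 15 (35.7%, against 29%). The counts of carrier genes with final locations thus stood close to the background share, and no test was made of these differences.

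Among the genes chosen by the rule, the share with cooccupied locations stood further from the background. A GATA1 location with a TAL1 location under 40 bp away was present at 1 carrier gene, Slc25a11 (2.38%), against 11.1% of all genes and 41 of 291 other solute carrier genes (14.1%). This count depended on the rule. Of family members outside it, 2 of 5 with other symbols (Ucp3 and Mtch2) and 1 of 2 left out (Slc25a38) had a cooccupied location. The count also depended on the setting. It was 4 genes at flanks of 20 kb (against 14.7% of all genes) and 2 by closest start site (against 10.9%). Within gene bodies it was 0 (against 6.81%). At a limit of 100 bp it was 3, for which no share of all genes was counted. Final GATA1 and TAL1 locations were present at 24.4% and 28.2% of the 291 other solute carrier genes. Those genes move substrates across other membranes for the most part. MultiGPS locations were present at 14 carrier genes for GATA1 (33.3%, against 27.5% of all genes) and at 12 for TAL1 (28.6%, against 24.8%). Peak pairs, the longest lists, reached 25 carrier genes for GATA1 (59.5%, against 48.4%) and 18 for TAL1 (42.9%, against 50.1%). At least 1 entry of any list was present at 30 carrier genes (71.4%, against 63.9%).

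**Figure D1:**
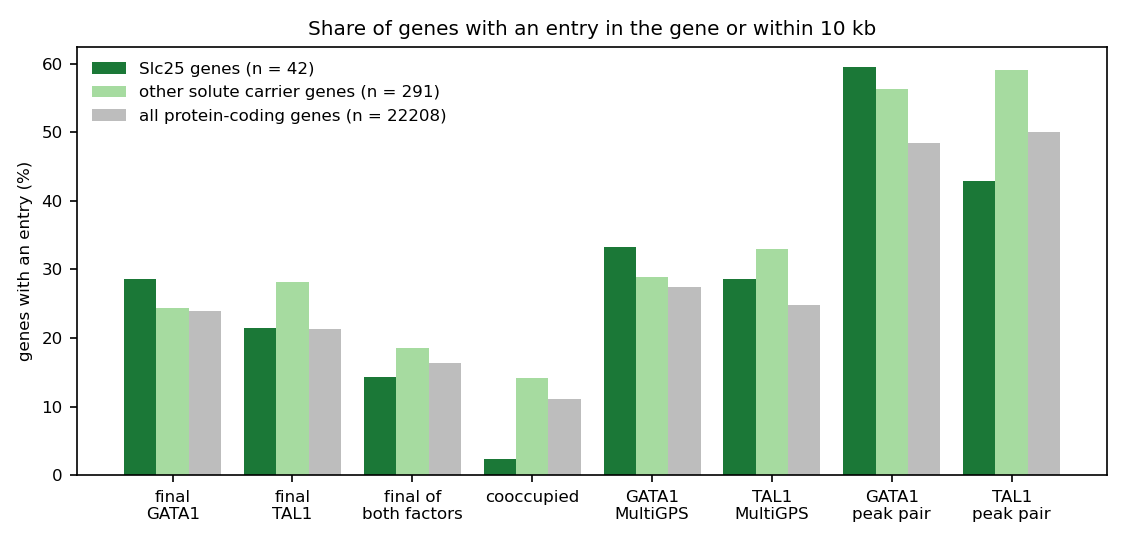
Share of genes (%) with an entry of each kind in the gene or within 10 kb, for the 42 Slc25 genes, 291 other solute carrier genes and all 22208 protein-coding genes. The bars of the Slc25 genes lie near those of all genes for final locations, at 28.6% and 23.9% for GATA1 and 21.4% and 21.3% for TAL1, and are shorter for cooccupied locations, at 2.38% and 11.1%.

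Longer genes have more room for entries. The carrier genes had a median length of 19370 bp (1346 to 484839 bp), against 15526 bp for all genes and 30368 bp for the other solute carrier genes. When all genes were divided into 4 classes of length, final GATA1 locations were present at 11.3, 20.6, 27.7 and 35.9% of genes from the shortest to the longest class, and at 1 of 5, 3 of 13, 6 of 19 and 2 of 5 carrier genes. For TAL1 the shares were 9.44, 17.8, 23.6 and 34.5% of all genes, and 2 of 5, 3 of 13, 2 of 19 and 2 of 5 carrier genes. Another count took only locations within 10 kb of any annotated start site of a gene. It does not leave gene length out, since a gene with several spread start sites has more room. By this count GATA1 locations were present at 10 carrier genes, against 16.6% of all genes, and TAL1 locations at 7, against 13.5%. Within 1 kb of a start site there were 3 carrier genes with GATA1 (7.14%, against 4.58%) and 3 with TAL1 (7.14%, against 2.81%). The median distance from a start site to the closest final GATA1 location was 39351 bp for carrier genes and 88536 bp for all genes. For TAL1 it was 79043 and 97828 bp.

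The carriers of di- and tricarboxylates move citric acid cycle intermediates and related acids between the matrix and the cytosol. Of these 4 genes, 3 had a final location of either factor, against 29% of all genes. Slc25a11, the oxoglutarate-malate carrier, had 2 GATA1 and 3 TAL1 final locations. Slc25a21, the oxodicarboxylate carrier, had 4 GATA1 and 1 TAL1. Slc25a1, the citrate carrier, had 1 TAL1 and no GATA1 final location. Slc25a10, the dicarboxylate carrier, had no entry in any list.

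Among the 12 genes of amino acid and carnitine carriers and their close relatives, 5 had GATA1 final locations and 3 of these also had TAL1, against 23.9 and 16.3% of all genes. Slc25a44, which carries branched-chain amino acids, had 4 GATA1 and 3 TAL1 final locations. Slc25a12, an aspartate-glutamate carrier, and Slc25a18, a glutamate carrier, each had 1 of each factor. Slc25a15, the ornithine carrier of the urea cycle, and Slc25a45 each had 1 GATA1 and no TAL1 final location. Slc25a13, Slc25a22 and Slc25a47 had peak pairs alone, and Slc25a2, Slc25a20, Slc25a29 and Slc25a48 had no entry.

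Adenine nucleotide carriers bring ATP, ADP or coenzyme A across the membrane, and 5 of their 10 genes had a final location of either factor, against 29% of all genes. Slc25a17, a carrier of the peroxisome membrane, and Slc25a31, the ADP/ATP carrier of germ cells, had 2 GATA1 final locations each. Slc25a23, an ATP-Mg/phosphate carrier, had 1 GATA1, and its relative and neighbor on chromosome 17, Slc25a41, had 1 of each factor. Slc25a42, a coenzyme A carrier, had 1 TAL1 final location and no GATA1. The major somatic ADP/ATP carriers had none, with 2 GATA1 peak pairs at Slc25a4 and 2 TAL1 peak pairs at Slc25a5. Slc25a24 had 1 GATA1 pair, Slc25a25 had 6 GATA1 pairs with 1 TAL1 pair and 1 TAL1 MultiGPS location, and Slc25a16 had no entry.

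The 6 carriers of cofactors, metals and glutathione, which serve heme and iron-sulfur cluster synthesis among other pathways, had 1 final location in all, so that 1 of 6 genes had a location of either factor, against 29% of all genes. It was a TAL1 location at Slc25a28, the iron carrier mitoferrin-2. Slc25a39, a glutathione carrier, had no entry within 10 kb, and its relative Slc25a40 had 2 GATA1 peak pairs. Slc25a32, a folate and flavin carrier, had 1 GATA1 MultiGPS location that lacked a pair. Slc25a26, the S-adenosylmethionine carrier, had 1 pair of each factor.

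The 4 phosphate and uncoupling protein carriers and the 2 pyrimidine nucleotide carriers had no final location of either factor. Such a location was present at 29% of all genes, so few would be expected among so small a number of genes. Slc25a3, which brings phosphate into the matrix for ATP synthesis, had 2 GATA1 peak pairs, and 1 of these lay 664 bp upstream of its closest start site. Slc25a30 had 1 GATA1 pair, Slc25a27 had 1 TAL1 pair, and Slc25a14, Slc25a33 and Slc25a36 had no entry. Of the 4 carriers without a firmly known substrate, 1 had a final location of either factor, against 29% of all genes. It was a GATA1 location at Slc25a43. Slc25a35 had 1 GATA1 pair 910 bp upstream, and Slc25a34 and Slc25a46 had no entry.

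**Figure D2:**
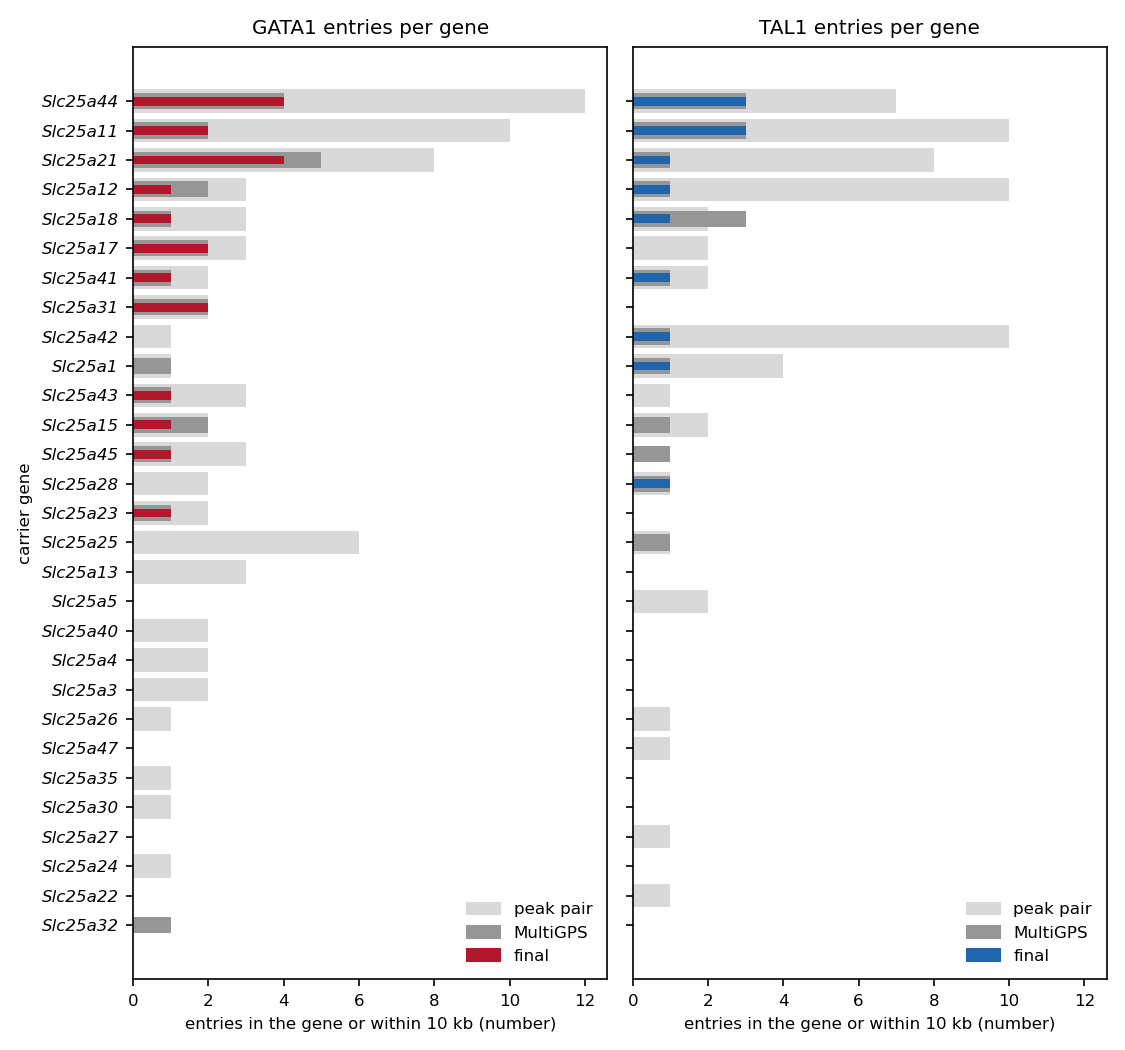
Number of GATA1 entries (left) and TAL1 entries (right) in each carrier gene or within 10 kb, for 29 of the 30 genes with any entry. Nested bars show peak pairs (light gray), MultiGPS locations (dark gray) and final locations (color). Slc25a44, Slc25a11 and Slc25a21 have the most final locations of both factors together.

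Slc25a11 (ENSMUSG00000014606.8, chr11:70457698-70460981, minus strand) sits in a stretch crowded with other genes. A GATA1 location at 70462093 and a TAL1 location at 70462099 lay 6 bp apart, 1112 and 1118 bp upstream of its start site and inside Rnf167, a gene on the opposite strand. The other cooccupied point had GATA1 at 70452542 and TAL1 at 70452522, with another TAL1 location at 70452359. This point lay 5156 bp beyond the 3′ end of Slc25a11 but 82 bp from the start site of Gp1ba, which encodes a platelet surface glycoprotein. Only the upstream point therefore had Slc25a11 as the gene of its closest start site. The sequence of that point is shown because both factors were placed within a few bases of each other on it, with each GATA motif, AGATAA or TGATAA on either strand, in capitals.
Slc25a11, GATA1 and TAL1 locations 6 bp apart, chr11:70462063-70462123, plus strand: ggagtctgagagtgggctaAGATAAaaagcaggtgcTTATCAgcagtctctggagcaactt
The stretch holds 2 GATA motifs on opposite strands, and an E-box (any match to CANNTG) lies between them.

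Slc25a44 (ENSMUSG00000050144.6, chr3:88214420-88229061, minus strand) had the most final locations among the genes chosen by the rule, and the 2 factors lay apart in it. GATA1 was placed in an intron at 88227737, 1324 bp inside the start site, and upstream at 88231037, 88231493 and 88235495. The first and second of the upstream locations, 1976 and 2432 bp from the start site, were less than 500 bp apart and so formed a cluster. TAL1 was placed deeper in the gene, at 88226041 and 88225854 in an intron and at 88215765 in the 3′ UTR, where the start site of Pmf1 was closer, at 1527 bp. The smallest distance between final locations of the 2 factors was 1696 bp. Peak pairs lay closer, with a GATA1 pair 37 bp from the TAL1 location at 88226041 and a TAL1 pair 137 bp from the GATA1 location at 88231493.

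Slc25a21 (ENSMUSG00000035472.7, chr12:57813621-58298459, minus strand) spans 484839 bp and is the longest of the carrier genes. Its final locations all lay within 12847 bp of its 5′ end. GATA1 was placed 421 bp upstream of the start site at 58298880, in the 5′ UTR exon at 58298266, and in an intron at 58287954 and 58285612. TAL1 was placed 343 bp upstream at 58298802, which is 78 bp from the upstream GATA1 location and thus outside the limit for cooccupancy. TAL1 peak pairs lay 33 bp from that GATA1 location and 49 bp from the one in the 5′ UTR. No other gene lay within 10 kb. The stretch with the upstream locations is shown with its GATA motif in capitals, since it is the point nearest a carrier start site at which final locations of both factors were found.
Slc25a21, TAL1 and GATA1 locations 78 bp apart, chr12:58298782-58298910, plus strand: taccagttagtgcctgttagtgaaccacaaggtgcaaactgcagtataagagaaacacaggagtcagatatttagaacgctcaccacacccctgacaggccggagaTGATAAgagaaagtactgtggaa
The motif lies beside the GATA1 location, and no GATA motif or E-box was found within 40 bp of the TAL1 location.

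**Figure D3:**
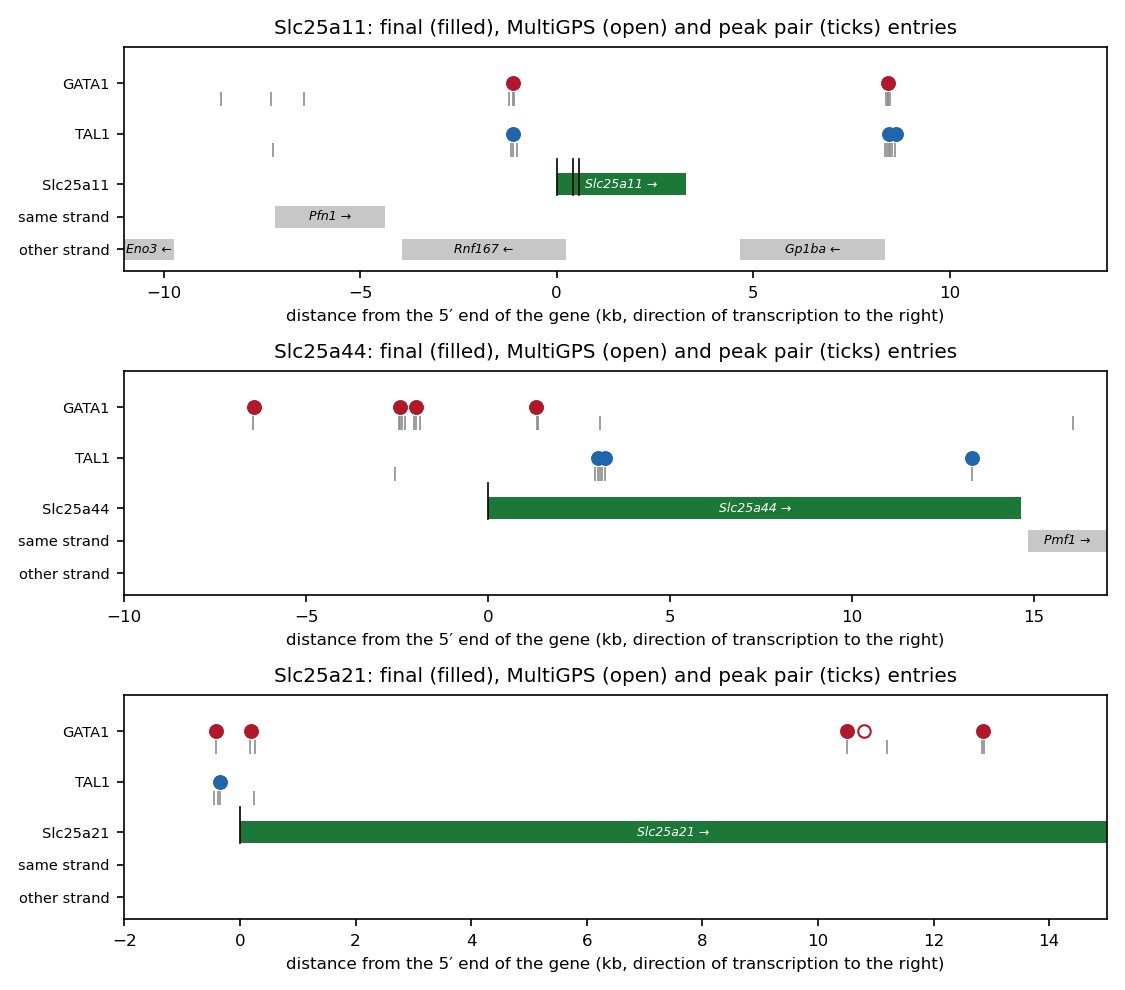
Entries around Slc25a11 (top), Slc25a44 (middle) and the 5′ part of Slc25a21 (bottom), in kb from the 5′ end of the gene with transcription to the right. Filled circles are final locations, open circles are MultiGPS locations, gray ticks are peak pairs, black lines are start sites and bars are genes. The GATA1 and TAL1 circles stand together at both points of Slc25a11 (6 and 20 bp apart) and apart at Slc25a44 (1696 bp or more).

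The paper describes TG, a partial E-box, as enriched at a short fixed distance before GATA motifs that both factors cooccupy. It reports no such enrichment at GATA1 sites where TAL1 was below its threshold. For TAL1 locations with GATA1 absent or below threshold, the paper does report enrichment of the cobound motif. It proposes that another GATA factor might be bound there. At carrier genes, 2 of the 21 GATA1 final locations had a TAL1 final location under 40 bp away, against 35.9% of the whole GATA1 list. Of the GATA1 final locations with a GATA motif within 40 bp, TG lay 7 or 8 bases before the closest motif at 3 of 17 (17.6%, exact binomial 95% interval 3.8 to 43.4%), against 28.2% over the whole list. For TAL1 it did at 5 of 9 (55.6%, 21.2 to 86.3%), against 50.3%. These locations were at 6 carrier genes, and at Slc25a11 the same motif was the closest for both factors. Their sequences are shown with the GATA motif and the TG in capitals, to compare the spacing, which was 7 bases at the farther Slc25a17 location and 8 bases at the others.
Slc25a11, TAL1 location 20 bp from a GATA1 location, chr11:70452492-70452552, plus strand: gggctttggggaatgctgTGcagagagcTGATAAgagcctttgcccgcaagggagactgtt
Slc25a17, GATA1 location 852 bp upstream, chr15:81192017-81192077, plus strand: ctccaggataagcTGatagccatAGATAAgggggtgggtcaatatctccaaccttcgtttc
Slc25a17, GATA1 location 7453 bp upstream, chr15:81198618-81198685, plus strand: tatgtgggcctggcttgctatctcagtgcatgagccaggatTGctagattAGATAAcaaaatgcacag
Slc25a1, TAL1 location 600 bp upstream, chr16:17928856-17928942, plus strand: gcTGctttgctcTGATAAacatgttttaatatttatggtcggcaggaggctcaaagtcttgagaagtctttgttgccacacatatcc
Slc25a12, TAL1 location 1509 bp downstream, chr2:71107581-71107641, plus strand: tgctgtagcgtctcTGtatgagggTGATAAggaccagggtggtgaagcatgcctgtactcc
Slc25a42, TAL1 location in an intron, chr8:72725445-72725531, plus strand: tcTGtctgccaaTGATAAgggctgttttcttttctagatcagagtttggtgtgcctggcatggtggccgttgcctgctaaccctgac
Slc25a44, motif 25 bp from the TAL1 location in the 3′ UTR, which itself lies outside the 30 bases shown, chr3:88215778-88215807, plus strand: gcTGgcctgaggAGATAAgagtgaggaaca
Both GATA1 locations of Slc25a17 and 4 TAL1 locations had this form with no final location of the other factor within 40 bp. Of these TAL1 locations, the one at Slc25a42 had a GATA1 peak pair 35 bp away.

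Slc25a17 (ENSMUSG00000022404.7, chr15:81149351-81191195, minus strand) had GATA1 at 81192047 and 81198648, 852 and 7453 bp upstream, with the second inside St13. Neither had TAL1 nearby, as the closest final TAL1 location was 162453 bp away and the closest TAL1 peak pair 20452 bp away. Slc25a31 (ENSMUSG00000069041.6, chr3:40512777-40529515, plus strand) had GATA1 in an intron at 40523149 and 6894 bp past its end at 40536409, where Hspa4l had the closest start site. Both had a GATA motif within 40 bp, and the closest final TAL1 locations were 24665 and 37925 bp away.

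Slc25a1 (ENSMUSG00000003528.8, chr16:17925304-17928312, minus strand) had TAL1 at 17928912, 600 bp upstream, with 4 TAL1 peak pairs at the gene. GATA1 was called there by MultiGPS at 17928803, 109 bp from the TAL1 location, but without a pair near enough to enter the final list. Slc25a42 (ENSMUSG00000002346.9, chr8:72708239-72736204, minus strand) had TAL1 in an intron at 72725501, 7363 bp upstream of the closer of its 2 start sites. Of its 10 TAL1 pairs, 9 lay between 72725347 and 72725696 around that location, and its only GATA1 pair lay there too, 35 bp away. Slc25a28 (ENSMUSG00000040414.7, chr19:43738312-43749371, minus strand) had TAL1 in an intron at 43748194, 1177 bp inside the start site. Its closest final GATA1 location was 38048 bp away. At these 3 genes TAL1 thus had a final location and GATA1 had MultiGPS or peak pair entries alone.

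Slc25a12 (ENSMUSG00000027010.8, chr2:71109120-71205806, minus strand) had its final locations at opposite ends. GATA1 was in an intron at 71204799, 1007 bp inside the start site, and TAL1 was at 71107611, 1509 bp past the 3′ end, so the 2 locations lay further apart than the length of the gene. Other entries of both factors lay nearer, with a GATA1 MultiGPS location outside the final list 531 bp from the TAL1 location and a TAL1 peak pair 842 bp from the GATA1 location. Slc25a18 (ENSMUSG00000004902.5, chr6:120723786-120744000, plus strand) had TAL1 in an intron at 120735111, 785 bp before its second start site, and GATA1 at 120745631, 1631 bp past its end in Atp6v1e1. A TAL1 MultiGPS location that was not in the final list lay 52 bp from that GATA1 location. Slc25a41 (ENSMUSG00000011486.8, chr17:57172196-57181077, minus strand) had GATA1 at 57167073 and TAL1 at 57167136, 63 bp apart and both inside Khsrp, 5123 and 5060 bp past its end. Of these 3 genes, none had its GATA1 and TAL1 locations under 40 bp apart.

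The remaining genes had 1 GATA1 final location each. It lay in an intron of Slc25a15 and of Slc25a45, 3945 and 5479 bp inside the start site, and upstream of Slc25a23 and Slc25a43, by 683 and 2174 bp. At Slc25a45 a TAL1 MultiGPS location lay 16 bp away, but it lacked a peak pair and was not in the final list. The Slc25a23 location, inside the neighboring gene Crb3, and the Slc25a43 location are shown as an upstream point with a GATA motif within 40 bp (capitals) and one without a motif in that range. Both peak pairs at the Slc25a43 location had a GATA motif within 40 bp, which lies just past the window shown. These sequences go beyond the rule for named genes and were chosen after their values were seen.
Slc25a23, GATA1 location 683 bp upstream, chr17:57199939-57200007, plus strand: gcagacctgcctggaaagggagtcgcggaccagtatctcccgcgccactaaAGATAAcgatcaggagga
Slc25a43, GATA1 location 2174 bp upstream, chrX:34281450-34281510, plus strand: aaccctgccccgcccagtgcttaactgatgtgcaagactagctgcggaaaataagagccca

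**Figure D4:**
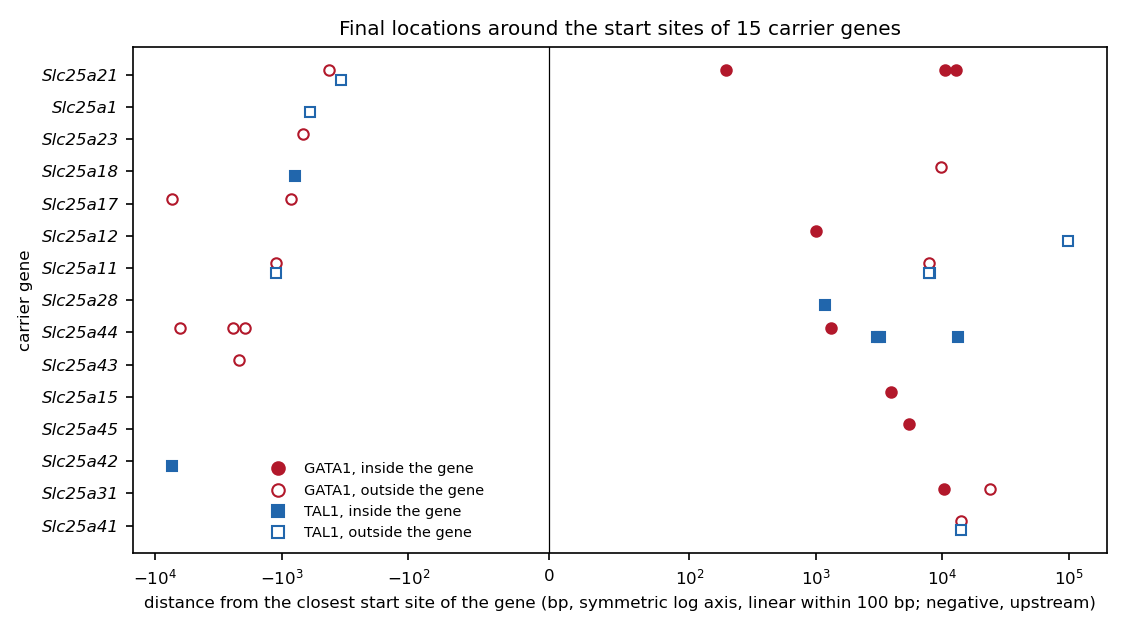
Distance (bp, symmetric log axis, linear within 100 bp) of each final GATA1 (circles) and TAL1 (squares) location from the closest annotated start site of its carrier gene, with upstream to the left. Filled symbols are inside the gene and open symbols outside. Slc25a21, Slc25a1, Slc25a23, Slc25a18 and Slc25a17 have a location within 1 kb of a start site.

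Altogether the carrier genes had 21 GATA1 and 13 TAL1 final locations, and no location counted for more than 1 carrier gene. Of the GATA1 locations, 7 were in introns, 1 in an exon, 9 upstream and 4 downstream. Of the TAL1 locations, 5 were in introns, 1 in an exon, 3 upstream and 4 downstream. The carrier gene had the closest start site for 18 of 21 GATA1 and 8 of 13 TAL1 locations. Another gene body held 5 of the GATA1 and 2 of the TAL1 locations, and no other gene lay within 10 kb of 10 GATA1 and 7 TAL1 locations. The mean number of GATA1 locations per gene was 0.5 for carrier genes and 0.468 for all genes, and of TAL1 locations 0.31 and 0.662.

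At the genes chosen by the rule, final locations of the 2 factors were seldom found at the same point. At Slc25a21, Slc25a42, Slc25a44 and Slc25a45, a MultiGPS location or peak pair of the other factor lay under 40 bp from a final location. Such entries were not counted over all genes. TAL1 was placed under 40 bp from 2 of the 21 GATA1 locations (9.52%, exact binomial 95% interval 1.17 to 30.4%), against 35.9% of the whole GATA1 list. Of the 13 TAL1 locations, 2 had a GATA1 location that close (15.4%, 1.92 to 45.4%), against 27.5% of the whole TAL1 list. Among genes with final locations of both factors, 1 of 6 carrier genes had a cooccupied location, against 2460 of 3609 genes overall (68.2%). Homotypic clusters, in which locations of 1 factor are under 500 bp apart, held 2 of 21 GATA1 locations (9.52%, 1.17 to 30.4%), against 13.7% of the whole list. They held 4 of 13 TAL1 locations (30.8%, 9.09 to 61.4%), against 64.4%, and these were at Slc25a11 and Slc25a44. The intervals cover counting error and treat locations as independent, and the differences from the whole lists were not tested. The whole lists hold locations at any distance from a gene.

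**Figure D5:**
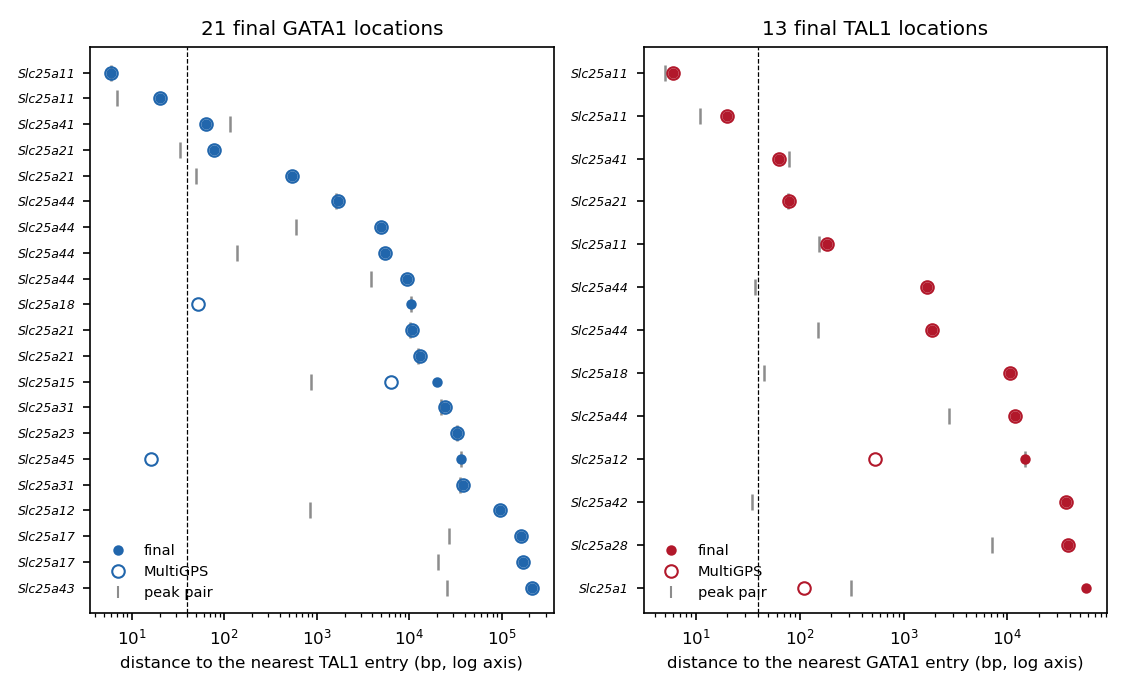
Distance (bp, log axis) from each of the 21 final GATA1 locations to the nearest TAL1 entry (left) and from each of the 13 final TAL1 locations to the nearest GATA1 entry (right), labeled by carrier gene. Filled circles are final locations, open circles MultiGPS locations and gray ticks peak pairs, and the dashed line is at 40 bp. Filled circles lie left of the line for Slc25a11, at 6 and 20 bp, and for no other gene.

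A motif lay within 40 bp of 17 of 21 GATA1 locations (81%, exact binomial 95% interval 58.1 to 94.6%), against 69.1% of the whole list, and in 5 of 42 windows moved by 1 kb to either side (11.9%). It lay within 40 bp of 9 of 13 TAL1 locations (69.2%, 38.6 to 90.9%), against 49% of the whole list, and in 1 of 26 moved windows (3.85%). When the motif was sought within 20 bp, the TAL1 share was 38.5%, and the motifs at Slc25a1, Slc25a28 and Slc25a42 lay 39 bp from the location. An E-box was present at 42.9% of GATA1 and 53.8% of TAL1 locations, against 41.9% and 48.9% of the whole lists and 31 and 50% of moved windows. The GATA1 locations without a motif were at Slc25a21, Slc25a41, Slc25a43 and Slc25a44, and the TAL1 locations without a motif were at Slc25a11, Slc25a18, Slc25a21 and Slc25a44. A match shows that the letters are present and not that they are bound.

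Peak pairs reached more of the family than final locations, which by definition have a pair close by. There were 77 GATA1 and 66 TAL1 pairs at carrier genes, and 35 (45.5%) and 27 (40.9%) of them lay within 100 bp of a final location, against 46.1 and 50.1% over all pairs. GATA motifs were present at 63.6% of the GATA1 pairs and 25.8% of the TAL1 pairs, against 8.44 and 3.03% of windows moved by 1 kb. The share over all pairs was not counted, and neighboring pairs, as at Slc25a11, could share 1 motif. At 12 carrier genes for GATA1 and 7 for TAL1, pairs were the only entries of the factor, and the same was not counted over all genes. Slc25a25 had the most GATA1 pairs of these, with 6, of which 5 lay in its introns. The 15 genes with an entry but no final location included Slc25a3, Slc25a4, Slc25a5, Slc25a13, Slc25a22, Slc25a24, Slc25a25, Slc25a26, Slc25a27, Slc25a30, Slc25a32, Slc25a35, Slc25a40 and Slc25a47. Any entry was present at 71.4% of carrier genes and a final location of either factor at 35.7%, against 63.9 and 29% of all genes.

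Promoter sequences from RefSeq (build GRCm38.p6, 250 bases before to 50 bases after the start) were searched by gene symbol, with 33 of the carrier genes matched to 42 promoters. A GATA motif was present in 5 (11.9%), against 18.6% of all promoters, and an E-box in 30 (71.4%), against 72.3%. The 5 belonged to Slc25a5, Slc25a12, Slc25a22 and Slc25a23, which had 2. Of these genes Slc25a23 had a final GATA1 location within 1 kb of a start site, and Slc25a12 had one 1007 bp inside its start site.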

How the data were processed

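ChIP-exo libraries of GATA1 (n = 10) and TAL1 (n = 15) were analysed as 6 deposited lists, whose values are base positions in mm9. The authors called bases with CASAVA 1.7 and bcl2fastq 2.15, aligned reads to mm9 with Bowtie 1.00 or BWA 0.6.2 and 0.7.9a, kept uniquely mapped reads, merged replicates and left out blacklisted regions. GeneTrack peaks (sigma 5, exclusion 10) were paired by the authors, and both methods required over 2-fold enrichment over input at q under 0.05. Tool names and versions are from the submitters' processing notes.

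Genes came from GENCODE vM1, without chromosomes Y and M, on which the lists have no entry. Of 22350 gene entries the longest of each name was kept. Motifs were exact strings on either strand that overlapped the 40 bp on each side of a position. Every member with a final location was named, positions were given for members with a cooccupied location and the 5 with the most locations of each factor including ties, and the other members were named without positions, except Slc25a23 and Slc25a43, whose sequences are shown, and 1 that enters the counts but is not reported here by name. Members and lists were chosen with earlier results of these data known. The counting was tested on simulated data, where 200 of 200 genes and 500 of 500 motifs were recovered. Counting ran in Python 3.11.15 with pysam 0.24.0 and samtools 1.23.1, intervals in scipy 1.17.1 with numpy 2.4.6, and plots in matplotlib 3.10.9.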

Additional observations from a re-analysis of the deposited data

How the results depend on the processing

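Of 50 recounts under another setting, 33 stayed within 1.5 times the reported count (or within the interval of a share) and 17 did not. With flanks of 20 kb in place of 10 kb, 14 carrier genes had TAL1, 11 had both factors and 4 had a cooccupied location (Slc25a11, Slc25a15, Slc25a30 and Slc25a31), against 27.5, 21.5 and 14.7% of all genes. Within gene bodies alone, 6 genes had GATA1 with 8 locations, 4 had TAL1 with 6 locations, 1 had both and 0 had a cooccupied location, against 14.4, 12.9, 9.7 and 6.81% of all genes. With each location given to the gene of its closest start site, 2 genes had a cooccupied location (Slc25a11 and Slc25a31, against 10.9%), and 11 of the 12 GATA1 and 7 of the 9 TAL1 genes were the reported ones. With peak pairs, 25 genes had GATA1 and 18 had TAL1, from 77 and 66 pairs, against 48.4 and 50.1% of all genes. Pairs of both factors were present at 14, for which no share of all genes was counted. With cooccupancy at under 100 bp, 3 genes had it (Slc25a11, Slc25a21 and Slc25a41), and no share of all genes was counted at this limit. With the GATA motif sought within 20 bp, 38.5% of TAL1 locations had it. These recounts changed what was counted by construction. No paired analysis was possible because the lists pool the replicates, and for the same reason no replicate could be left out. The depth behind an entry is unknown, so a gene without an entry is not shown to be unbound.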

Other observations

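Carrier family members with other symbols were counted in the same way. Ucp3, an uncoupling protein, had 2 GATA1 and 7 TAL1 final locations, and both GATA1 locations were cooccupied. Its neighbor Ucp2 had 4 GATA1 peak pairs and no final location, and Ucp1, the uncoupling protein of brown fat, had no entry. Mtch2, an outer membrane relative of the carriers, had 1 GATA1 and 3 TAL1 final locations with 1 cooccupied, and Mtch1 had 1 GATA1. Of these 5 genes, 3 had GATA1, 2 had TAL1 and 2 had a cooccupied location, against 23.9, 21.3 and 11.1% of all genes. Both genes left out of the family by the rule serve heme synthesis. Slc25a38, the glycine carrier, had 3 GATA1 and 7 TAL1 final locations with 2 of the GATA1 locations cooccupied, and Slc25a37, the iron carrier mitoferrin-1, had 1 GATA1 final location and 2 TAL1 MultiGPS locations that were not in the final list. These genes were listed with earlier results known, and no test was made.

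Carrier proteins are imported by receptors, pores and chaperones, and of 10 such genes 2 had GATA1 and 2 had TAL1 final locations. Tomm40, the pore of the outer membrane, had 1 GATA1 and 2 TAL1 with 1 cooccupied, Tomm20 had 1 GATA1 and Timm8b had 1 TAL1. Timm22, which inserts carriers into the inner membrane, had 2 GATA1 peak pairs alone. Of 11 other mitochondrial transporters 3 had GATA1 and 2 had TAL1. Vdac2, a channel of the outer membrane, had 3 GATA1 and 2 TAL1 with 1 cooccupied, Sfxn4 had 2 and 1, and Vdac1 had 1 GATA1. These shares lay near those of all genes, at 23.9% for GATA1 and 21.3% for TAL1.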
